A study of Homo sapiens with 6 samples.

Results

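The proteasome genes of HepG2, a human liver cancer cell line with much of the hepatocyte programme still active, were followed after treatment with tamarixetin, an O-methylated form of the flavonol quercetin. Members were taken by symbol: every PSMA, PSMB, PSMC, PSMD, PSME, PSMF and PSMG gene with a number, and POMP, which gave 49 of the 43424 gene symbols counted. They comprise 8 alpha and 7 standard beta subunits of the 20S core, 4 alternative beta subunits, 6 ATPase and 11 non-ATPase subunits of the 19S particle, 5 activators or inhibitors and 8 assembly factors. Cells without a listed genetic change (labelled WT) were given 10 µM tamarixetin for 24 h (3 libraries) and were compared with control cells listed as having no treatment (3 libraries). The protocols place the compound in medium with 1% serum, against 10% for growth; neither a vehicle nor the control medium is given here, so compound and medium cannot be told apart if the media differed. The libraries of each group are labelled biological replicates, without saying whether they came from separate cultures on separate days.

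The proteasome degrades proteins tagged with ubiquitin. Its 20S core is a stack of alpha rings that gate the entry and beta rings that cut; the 19S particle binds, strips and unfolds the substrate with a ring of ATPases. Dedicated chaperones build the rings, and other caps such as PA28 can replace the 19S particle. Cells under oxidative or proteotoxic stress are known to make more proteasome through the transcription factors NFE2L1 and NFE2L2, while interferon exchanges the catalytic beta subunits for alternative ones, forming the immunoproteasome.

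Libraries were made with a 3′ kit, in which a transcript gives about 1 fragment whatever its length, so levels in CPM (counts scaled to a common library size with TMM factors) were compared between genes without a length correction. The libraries held 11980585 to 16168855 counts. Mitochondrial genes took 7.99% to 8.54% of counts in tamarixetin libraries and 10.3% to 11.1% in control libraries. Of 10 hepatocyte markers all were detected, and their summed level was 10894 ± 152 CPM with tamarixetin and 19201 ± 286 CPM in control (SD, n = 3 each); all 10 were lower. The leukocyte marker CD3E and the endothelial marker KDR were at 0 in every library, and PTPRC stayed at 0.098 and 0.114 CPM on average with tamarixetin and in control. Not all markers of other cell types were silent. LYZ, in the leukocyte list, averaged 781 CPM with tamarixetin and 936 CPM in control, and CD68 14.4 and 12.6 CPM. COL1A1, in the fibroblast list, averaged 21.0 CPM with tamarixetin and 25.4 CPM in control. In such bulk libraries a lower level in each cell and fewer cells that express a gene cannot be told apart, and the part of the fall in hepatocyte genes or in mitochondrial share in the results below was not tested.

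Tamarixetin cells had modestly more mRNA for the 19S particle, for the alpha ring and for assembly factors, while no standard beta subunit rose, although PSMB7 lay at the threshold and passed under some other settings. Of 49 members 47 had enough counts to be tested, and 21 rose and 5 fell (edgeR's quasi-likelihood test, adjusted p under 0.05). Among all 13198 genes tested, 43.7% were called, 22.4% higher and 21.3% lower; the members stood at 55.3%, 44.7% and 10.6%. Most members are abundant, and abundant genes are called more often: of the 38 members that averaged 50 CPM or more, 19 were higher and 4 (10.5%) lower, where 63.3% of all 3707 genes at that level were called, 32.5% higher and 30.8% lower. The median log2 fold change was 0.095 over the members tested and 0.00038 over all genes tested. The rises were small: 12 members rose at least 1.2-fold and 9 by less. The 3 tamarixetin libraries lay above the 3 controls in 24 members and below them in 5, where 26.0% and 24.5% of all genes tested did so. Summed over all 49 members, the level was 8910 ± 103 CPM with tamarixetin and 8346 ± 71.2 CPM in control (SD, n = 3 each), a ratio of 1.07. When the test asked for more than a 1.2-fold difference, 5 of the 47 members tested (10.6%) passed, PSMD2, PSMD12, PSMD14, PSMG1 and PSMG4, all higher. That share lay below the 19.4% of all genes that passed in either direction. Of all 13198 genes tested, 1319 passed as higher and 1241 as lower.

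**Figure D1:**
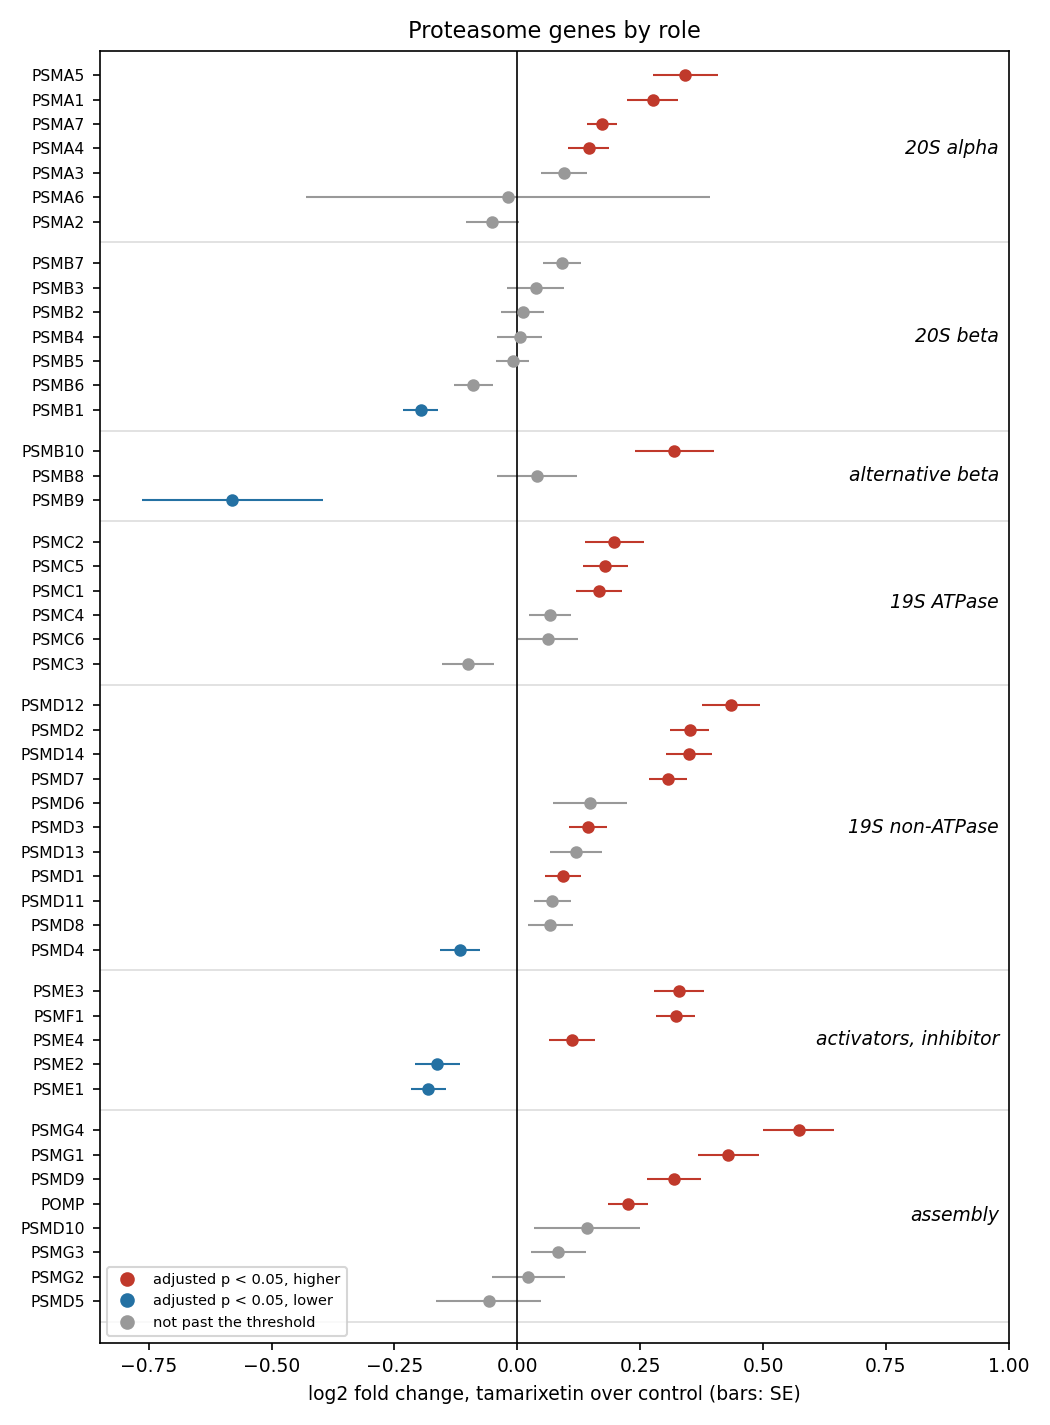
Log2 fold change of the 47 tested members, tamarixetin over control, with bars for the SE, grouped by role. Red marks the 21 members called higher, blue the 5 called lower and grey those not past the threshold; the standard beta subunits sit around 0, apart from PSMB1, and PSMG4 has the highest value, 0.57.

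The alpha subunits form the outer rings of the core. Of 7 tested, 4 rose and none fell, with a median log2 fold change of 0.15. For this class and those below, the shares over all genes tested were 22.4% higher and 21.3% lower. Among genes that averaged 50 CPM or more they were 32.5% and 30.8%. No class was tested against those shares. PSMA5 had 61.1, 65.2 and 61.6 CPM with tamarixetin, against 48.1, 47.1 and 52.8 CPM in control (log2 fold change 0.34, SE 0.066, adjusted p = 8.40e-06, edgeR with Benjamini-Hochberg adjustment). PSMA1 had 116, 125 and 121 CPM with tamarixetin, against 91.6, 103 and 105 CPM in control (0.28, SE 0.052). In both genes the groups were apart. PSMA7, the most abundant member in either group, had 1098, 1079 and 1052 CPM with tamarixetin, against 947, 948 and 970 CPM in control (0.17, SE 0.031). PSMA4 had 256, 230 and 242 CPM with tamarixetin, against 210, 222 and 228 CPM in control (0.15, SE 0.042). Its groups nearly met, and the call was lost without tamarixetin replicate 1 (adjusted p = 0.0653, edgeR). PSMA3 (0.095, SE 0.047) and PSMA2 (-0.050, SE 0.054) did not pass, though PSMA3 did with library size alone (adjusted p = 0.0184, edgeR).

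PSMA6 stood out among the alpha subunits by its level. This essential ring subunit had 13, 23 and 19 counts with tamarixetin and 9, 24 and 24 counts in control, between 0.62 and 2.00 CPM, where the other standard alpha subunits lay between 47.1 and 1098 CPM. RefSeq (GRCh38.p14) places PSMA6 on chromosome 14 from 35278558 to 35317493, overlapping a read-through gene, PRORP-PSMA6, that runs from 35121839 to 35317471. The read-through symbol had 0 counts in every library. The counts of PSMA6 are therefore uncertain, and no direction was read from them (log2 fold change -0.020, SE 0.41). PSMA8, a testis form of an alpha subunit, had 0 counts in all libraries, where 3 counts would be 0.188 to 0.250 CPM.

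Of the 7 standard beta subunits, which form the inner rings, none rose and 1 fell, with a median log2 fold change of 0.0049. The faller was PSMB1, a structural subunit without a cutting site, with 469, 476 and 477 CPM under tamarixetin, against 553, 557 and 520 CPM in control (log2 fold change -0.20, SE 0.035, adjusted p = 1.15e-06, edgeR with Benjamini-Hochberg adjustment). Its groups were well apart. PSMB5, which carries the chymotrypsin-like activity, had 679, 659 and 629 CPM with tamarixetin, against 646, 658 and 676 CPM in control (-0.0095, SE 0.034), with the groups interleaved. PSMB6, the caspase-like subunit, had 224, 220 and 227 CPM with tamarixetin, against 234, 236 and 244 CPM in control (-0.089, SE 0.040, adjusted p = 0.0641, edgeR). PSMB7, the trypsin-like subunit, had 305, 310 and 294 CPM with tamarixetin, against 269, 299 and 286 CPM in control (0.091, SE 0.039, adjusted p = 0.0523, edgeR). The last 2 lay next to the threshold on opposite sides of 0: PSMB6 passed as lower with upper quartile factors (adjusted p = 0.00770), the filter of 5 CPM in 3 libraries (0.0345) and without control replicate 1 (0.0393), all by edgeR. PSMB7 passed as higher with library size alone (adjusted p = 0.00609), the replicate block (0.0497) and without tamarixetin replicate 3 (0.0382) or control replicate 2 (0.0178), all by edgeR, and in limma-voom (0.0394). PSMB2, PSMB3 and PSMB4 had log2 fold changes of 0.011, 0.037 and 0.0049, with SE of 0.044 to 0.059.

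Summed, the alpha subunits reached 1734 ± 25.3 CPM with tamarixetin and 1549 ± 36.1 CPM in control, a ratio of 1.12, whereas the standard beta subunits reached 2058 ± 38.1 CPM with tamarixetin and 2124 ± 27.6 CPM in control, a ratio of 0.969 (SD, n = 3 each). No library overlapped between groups in either sum. Both sums are led by few genes, PSMA7 among the alpha subunits and PSMB1 and PSMB5 among the beta subunits. PSMB1 alone averaged 474 CPM with tamarixetin and 544 CPM in control, a fall about as large as that of the beta sum. PSMB5 averaged 656 CPM with tamarixetin and 660 CPM in control. The lower beta sum therefore does not show a fall across the class. The difference between the classes was not tested.

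**Figure D2:**
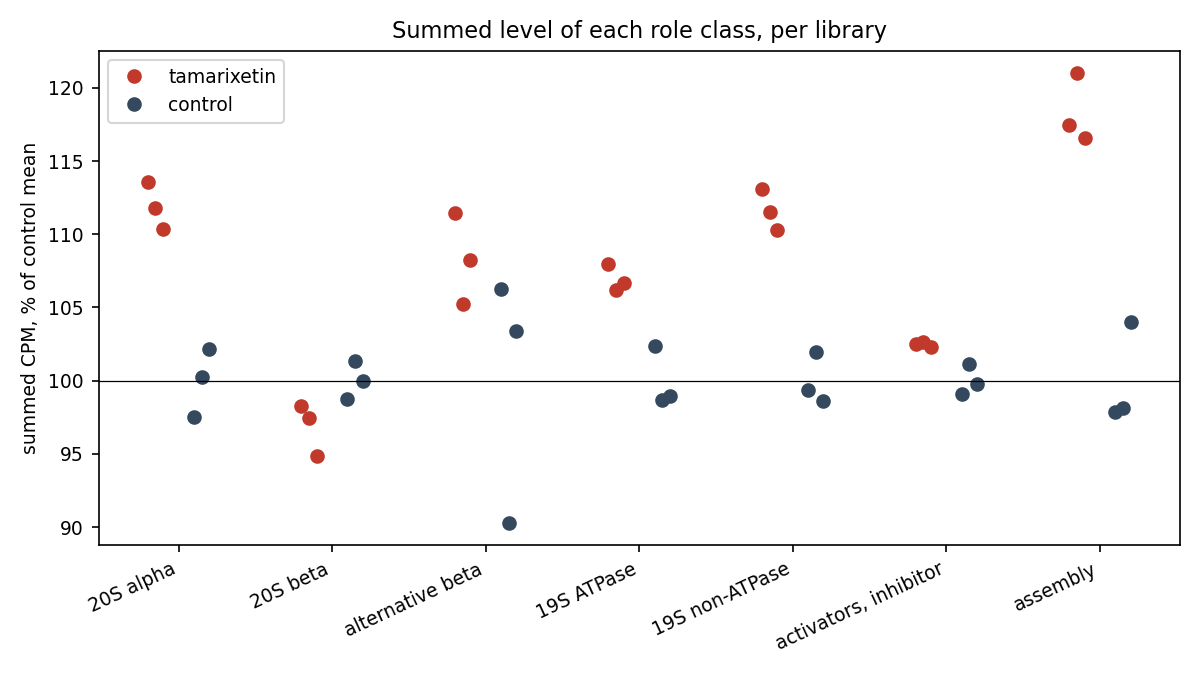
Summed CPM of each role class in each library, as a percentage of the control mean (y axis, not starting at 0), with tamarixetin left of control in each class. Assembly factors, alpha and non-ATPase subunits lie highest with tamarixetin, and the alternative beta subunits overlap. The summed standard beta subunits lie below control, with PSMB1 the only one of them called lower.

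Alternative beta subunits were scarce in both groups; PSMB10 rose, PSMB9 fell by a call that rested on single libraries, and PSMB8 did not pass. PSMB8 (chromosome 6, 32840717 to 32844679), the counterpart of PSMB5, had 37.7, 36.8 and 40.0 CPM with tamarixetin, against 40.4, 31.1 and 39.2 CPM in control (log2 fold change 0.040, SE 0.081). PSMB10 (chromosome 16, 67934506 to 67936850), the counterpart of PSMB7, had 39.8, 39.2 and 38.1 CPM with tamarixetin, against 31.7, 29.3 and 32.7 CPM in control (0.32, SE 0.081, adjusted p = 5.67e-04, edgeR with Benjamini-Hochberg adjustment). PSMB10 was higher in each tamarixetin library than in each control, while PSMB8 overlapped and its sign turned to -0.067 without control replicate 2. PSMB9 (chromosome 6, 32854192 to 32859851), the counterpart of PSMB6, had 114, 58 and 52 counts with tamarixetin, or 7.31, 4.20 and 4.29 CPM, against 128, 100 and 109 counts or 8.85, 8.33 and 6.83 CPM in control (-0.58, SE 0.18, adjusted p = 0.00650, edgeR). Its first tamarixetin library lay within the control range, and the call was lost without tamarixetin replicate 2 (adjusted p = 0.0768) or 3 (0.0551), both by edgeR. PSMB11, the thymus form, had 1 count in all 6 libraries together.

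As a share of the standard subunit in the same library, PSMB8 came to 5.83% ± 0.455 of PSMB5 with tamarixetin and 5.59% ± 0.786 in control. PSMB9 came to 2.35% ± 0.788 of PSMB6 with tamarixetin and 3.37% ± 0.509 in control, and PSMB10 to 12.9% ± 0.216 of PSMB7 with tamarixetin and 11.0% ± 1.06 in control (SD, n = 3 each). Of these shares, that of PSMB10 was apart between the groups and the others overlapped.

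**Figure D3:**
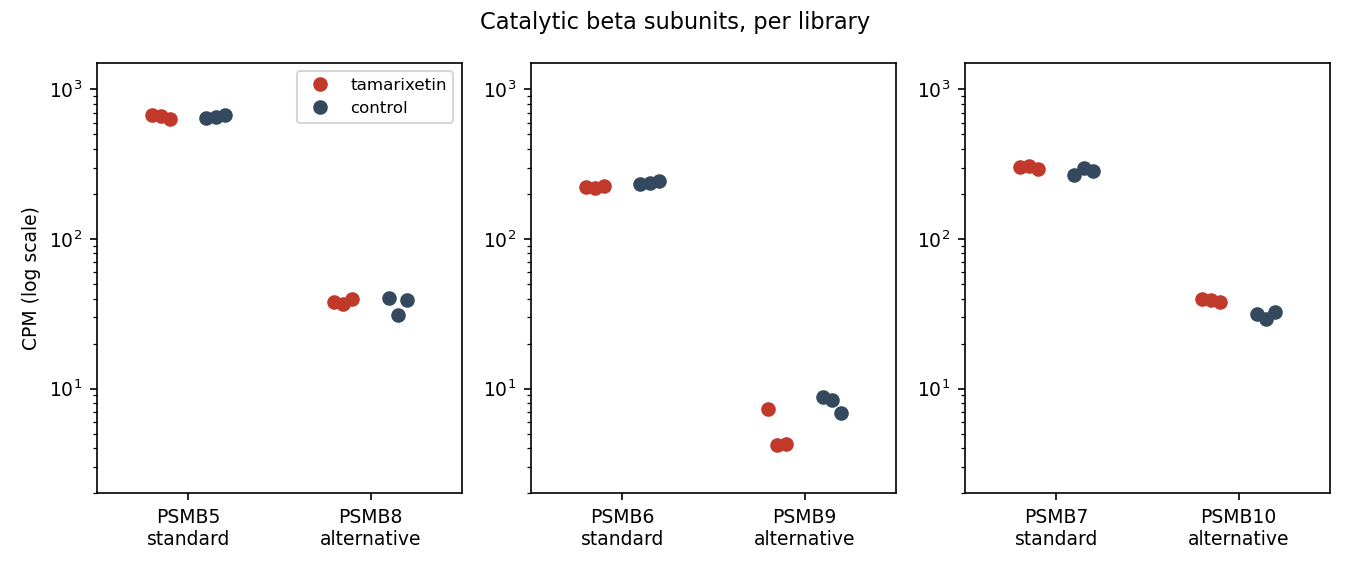
CPM (log scale) of each catalytic beta subunit and its alternative form in each library, tamarixetin left of control. In both groups the standard forms lie far above the alternative ones, with PSMB9 the lowest of the 6.

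The ATPases form the ring of the 19S particle that unfolds substrates and opens the core. Of 6 tested, 3 rose and none fell, with a median log2 fold change of 0.12. Among all genes that averaged 50 CPM or more, 32.5% rose and 30.8% fell. PSMC2 had 69.1, 76.5 and 72.8 CPM with tamarixetin, against 63.7, 62.2 and 64.3 CPM in control (0.20, SE 0.061). PSMC5 had 171, 164 and 157 CPM with tamarixetin, against 150, 147 and 138 CPM in control (0.18, SE 0.046). PSMC1 had 164, 150 and 166 CPM with tamarixetin, against 149, 142 and 136 CPM in control (0.17, SE 0.047). Their groups did not overlap, though in PSMC1 they came within 1 CPM of each other. The adjusted p ran from 7.27e-04 for PSMC5 to 0.00497 for PSMC2 (edgeR, Benjamini-Hochberg), and the call of PSMC2 was lost without tamarixetin replicate 2 (adjusted p = 0.0560, edgeR). RefSeq lists 13 pseudogenes of PSMC1, so its counts could be shared with near-identical copies. PSMC3 (-0.10, SE 0.053), PSMC4 (0.067, SE 0.042) and PSMC6 (0.063, SE 0.061) did not pass; PSMC3 was called lower with upper quartile factors (adjusted p = 0.0295) and without tamarixetin replicate 1 (0.0148) or control replicate 3 (0.0252), and PSMC4 higher with library size alone (0.0403), all by edgeR.

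Non-ATPase subunits of the 19S particle gave 6 rises and 1 fall among 11, with a median log2 fold change of 0.14. Of all genes that averaged 50 CPM or more, 32.5% rose and 30.8% fell. PSMD12, a scaffold subunit of the lid, had 82.4, 79.6 and 80.6 CPM with tamarixetin, against 61.4, 57.4 and 60.5 CPM in control (0.43, SE 0.060, adjusted p = 9.47e-10, edgeR with Benjamini-Hochberg adjustment). PSMD14, the enzyme that removes ubiquitin chains from substrates as they enter, had 185, 163 and 175 CPM with tamarixetin, against 135, 143 and 133 CPM in control (0.35, SE 0.047, adjusted p = 3.51e-10, edgeR). PSMD7, its partner in the lid, had 323, 319 and 333 CPM with tamarixetin, against 267, 266 and 256 CPM in control (0.31, SE 0.038, adjusted p = 3.95e-11, edgeR). All 3 genes had their groups well apart. PSMD2, a large base subunit that docks ubiquitin shuttles, had 287, 277 and 273 CPM with tamarixetin, against 220, 229 and 209 CPM in control (0.35, SE 0.040, adjusted p = 1.38e-12, edgeR), and had the smallest p of all members.

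PSMD3, a lid subunit, rose by 0.14 (SE 0.039) and PSMD1, the other large base subunit, by 0.093 (SE 0.037, adjusted p = 0.0313, edgeR). The call of PSMD1 was lost without tamarixetin replicate 1 (adjusted p = 0.146) or 2 (0.0951) and without control replicate 1 (0.0915) or 3 (0.0596), all by edgeR, under upper quartile scaling (0.200) and with no filter on low counts (0.0535). PSMD4, a ubiquitin receptor of the particle, fell against the rest, with 215, 216 and 215 CPM under tamarixetin, against 240, 232 and 229 CPM in control (-0.12, SE 0.041, adjusted p = 0.0137, edgeR); it was named because it was the single faller of its class, after its values were seen. Its call was lost with scaling by library size alone (adjusted p = 0.0939, edgeR). The 4 others, PSMD6, PSMD8, PSMD11 and PSMD13, had log2 fold changes between 0.068 and 0.15. They did not pass, but PSMD6, PSMD11 and PSMD13 each did with library size alone (adjusted p = 0.0417, 0.0170 and 0.0109, edgeR). PSMD6 also passed without control replicate 3 (adjusted p = 0.0258), PSMD11 without control replicate 2 (0.0491), and PSMD13 without control replicate 1 (0.0185) or 2 (0.0366) and with the replicate block (0.0482), all by edgeR, and PSMD13 in limma-voom (0.0452). Summed, the 17 members in the 19S particle came to 3217 ± 35.8 CPM with tamarixetin and 2913 ± 35.4 CPM in control (SD, n = 3 each), a ratio of 1.10. That sum leaves out SEM1, which fell, and ADRM1, which rose, because both lie outside the naming rule.

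Assembly factors included the highest rise of all members. PSMG4, which pairs with PSMG3 to guide alpha ring formation, had 56.4, 57.0 and 53.9 CPM with tamarixetin, against 36.8, 36.8 and 38.8 CPM in control (log2 fold change 0.57, SE 0.072, adjusted p = 3.57e-11, edgeR with Benjamini-Hochberg adjustment), a 1.49-fold difference with no overlap. PSMG1, a subunit of the other alpha ring chaperone, had 72.4, 76.9 and 73.7 CPM with tamarixetin, against 52.4, 57.3 and 55.9 CPM in control (0.43, SE 0.062, adjusted p = 5.19e-09, edgeR). Their partners did not pass: PSMG3, next to PSMG4 in the complex, had a log2 fold change of 0.083 (SE 0.056), and PSMG2, next to PSMG1, one of 0.022 (SE 0.074). The difference between partners was not tested. POMP, which drives beta ring formation and core dimerization, had 307, 311 and 287 CPM with tamarixetin, against 250, 246 and 277 CPM in control (0.23, SE 0.041, adjusted p = 1.58e-06, edgeR). PSMD9, a chaperone of the ATPase ring, had 95.4, 106 and 108 CPM with tamarixetin, against 81.1, 78.8 and 87.3 CPM in control (0.32, SE 0.055, adjusted p = 6.67e-07, edgeR). Both were apart between the groups, by a smaller margin than PSMG4. The other ATPase ring chaperones, PSMD5 (-0.058, SE 0.11) and PSMD10 (0.14, SE 0.11), had under 22 CPM in every library and did not pass. As a class the 8 assembly factors had 4 rises, no fall and a summed ratio of 1.18. Over all genes tested 22.4% rose and 21.3% fell, and 32.5% and 30.8% among those that averaged 50 CPM or more.

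Activators and the inhibitor divided by partner. PSME1 (chromosome 14, 24136194 to 24138962) and PSME2 (24143365 to 24146610) are neighbours and encode the subunits of PA28 alpha-beta, an interferon-inducible cap of the core. PSME1 had 404, 401 and 387 CPM with tamarixetin, against 443, 453 and 457 CPM in control (log2 fold change -0.18, SE 0.036, adjusted p = 1.08e-05, edgeR with Benjamini-Hochberg adjustment). PSME2 had 145, 144 and 139 CPM with tamarixetin, against 166, 153 and 161 CPM in control (-0.16, SE 0.046, adjusted p = 0.00200, edgeR). Both fell by a similar amount with the groups apart; RefSeq lists 6 pseudogenes of PSME2. PSME3, which encodes the nuclear form PA28 gamma, had 130, 130 and 139 CPM with tamarixetin, against 107, 113 and 98.4 CPM in control (0.33, SE 0.050, adjusted p = 2.78e-08, edgeR). PSMF1, a protein first described as an inhibitor of the core, had 291, 301 and 298 CPM with tamarixetin, against 229, 248 and 234 CPM in control (0.32, SE 0.039, adjusted p = 1.58e-11, edgeR). Each tamarixetin library was higher than each control in both. PSME4, the cap PA200, rose by 0.11 (SE 0.046, adjusted p = 0.0415, edgeR); that call was lost without any one of 5 libraries, namely tamarixetin replicate 1 (adjusted p = 0.0746) or 3 (0.176) and control replicates 1, 2 and 3 (0.0880, 0.102 and 0.0618), in DESeq2 (0.0634), and with upper quartile factors (0.179), no filter on low counts (0.0731) or the filter of 5 CPM in 3 libraries (0.0510).

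**Figure D4:**
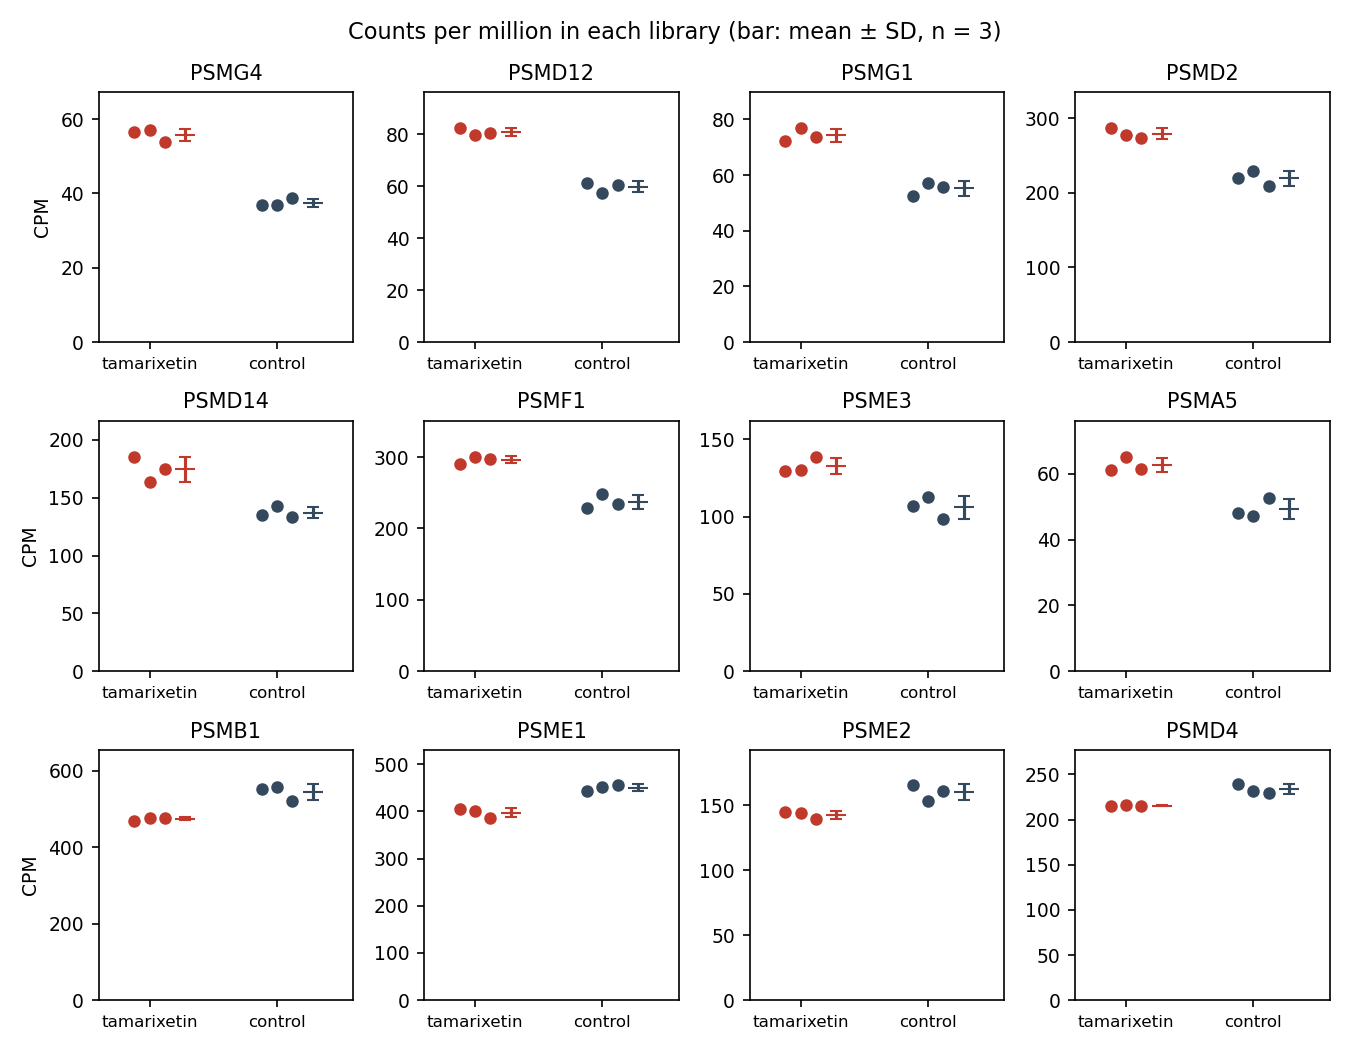
CPM in each library of 12 members (points, tamarixetin left of control, axes from 0), with the mean and SD beside them (n = 3 each). The first 8 genes are higher with tamarixetin and the bottom 4, PSMB1, PSME1, PSME2 and PSMD4, are lower, without overlap.

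Promoter windows from RefSeq (GRCh38.p14, 250 bases before to 50 after a transcript start) were found for 43 of the 49 members, 52 windows in all, and were searched on both strands for letters typical of stress and interferon elements. The core of the interferon-stimulated response element, GAAA and GAAA with any 2 bases between, was in 7 of 52 windows (13.5%) and in 3.57% of all 34943 windows. It was in windows of PSMB8, PSMB10, PSME1 and PSME2, of the highest riser PSMG4, and of PSMA4 and PSMB4. Windows of PSMG4, PSMB10, PSME1 and PSME2 are printed because these genes share the letters but moved in different directions; capitals mark the match, and PSME1 holds it on the opposite strand, as TTTCGCTTTC. They lie at chr6:3258697-3258996 (plus strand), chr16:67936801-67937100 (minus), chr14:24135944-24136243 (plus) and chr14:24146561-24146860 (minus).
PSMG4: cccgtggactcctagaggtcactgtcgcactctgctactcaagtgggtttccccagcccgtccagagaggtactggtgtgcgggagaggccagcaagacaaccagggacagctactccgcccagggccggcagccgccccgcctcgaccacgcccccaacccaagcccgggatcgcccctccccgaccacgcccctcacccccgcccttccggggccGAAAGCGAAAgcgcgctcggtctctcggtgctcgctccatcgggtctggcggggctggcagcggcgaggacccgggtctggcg
PSMB10: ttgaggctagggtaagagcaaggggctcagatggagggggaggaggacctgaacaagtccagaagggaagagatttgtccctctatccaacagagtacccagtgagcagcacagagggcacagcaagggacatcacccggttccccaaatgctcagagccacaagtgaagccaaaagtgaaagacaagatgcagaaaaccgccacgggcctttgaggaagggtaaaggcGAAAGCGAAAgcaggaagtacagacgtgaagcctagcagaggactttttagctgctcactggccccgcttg
PSME1: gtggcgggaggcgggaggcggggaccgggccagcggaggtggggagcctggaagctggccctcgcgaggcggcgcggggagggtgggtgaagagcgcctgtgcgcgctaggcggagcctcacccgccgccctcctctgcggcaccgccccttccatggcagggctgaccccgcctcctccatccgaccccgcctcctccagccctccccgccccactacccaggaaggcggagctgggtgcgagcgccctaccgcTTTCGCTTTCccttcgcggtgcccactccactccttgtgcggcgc
PSME2: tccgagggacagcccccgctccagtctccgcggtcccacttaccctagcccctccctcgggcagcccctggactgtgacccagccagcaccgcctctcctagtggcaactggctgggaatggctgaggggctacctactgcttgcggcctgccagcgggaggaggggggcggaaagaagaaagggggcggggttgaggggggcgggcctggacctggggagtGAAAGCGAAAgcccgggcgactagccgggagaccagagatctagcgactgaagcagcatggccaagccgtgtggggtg
PSMG4, PSMB10 and PSME2 carry the same letters, GAAAGCGAAA, beginning 33, 21 and 28 bases before the transcript start of the window. PSMG4 and PSMB10 rose and PSME2 fell. A window of PSMB8, which was not called, holds these letters on the opposite strand, as PSME1 does. The PSMG4 window belongs to a transcript start inside the gene, which RefSeq begins at 3254404.

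The core of the antioxidant response element, TGACNNNGC, to which NFE2L1 and NFE2L2 bind with small MAF proteins, was in 15 of 52 member windows (28.8%) and in 13.3% of all windows. Of those 15 genes, 8 rose (PSMA4, PSMC5, PSMD1, PSMD3, PSMD9, PSMD12, PSME4 and PSMG1), 3 fell (PSMB9, PSME1 and PSME2) and 4 were not called. Of the 43 genes with a window, 20 rose and 3 fell. PSMD12 (chr17:67366528-67366827, minus strand) and PSMD9 (chr12:121888540-121888839, plus strand) are printed as a strong riser with 1 match and a riser with 2, in capitals.
PSMD12: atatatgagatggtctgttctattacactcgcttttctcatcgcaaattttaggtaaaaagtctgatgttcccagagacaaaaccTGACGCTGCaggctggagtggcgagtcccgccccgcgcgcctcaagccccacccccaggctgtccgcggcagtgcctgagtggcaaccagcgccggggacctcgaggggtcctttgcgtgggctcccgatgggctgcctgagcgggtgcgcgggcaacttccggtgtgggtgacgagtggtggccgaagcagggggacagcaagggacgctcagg
PSMD9: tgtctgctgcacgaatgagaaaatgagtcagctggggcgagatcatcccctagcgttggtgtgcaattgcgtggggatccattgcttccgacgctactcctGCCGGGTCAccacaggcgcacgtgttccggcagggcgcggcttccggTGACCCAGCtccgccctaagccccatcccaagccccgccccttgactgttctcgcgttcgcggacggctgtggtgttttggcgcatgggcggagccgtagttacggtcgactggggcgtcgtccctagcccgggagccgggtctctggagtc
The heat shock element, GAA, TTC and GAA each 2 bases apart, was in none of the member windows and in 0.489% of all windows. The STAT site TTCNNNGAA was in 8 member windows (15.4%, against 7.66% of all) and CCAAT in 20 (38.5%, against 34.6%). No match of any of these motifs overlapped a match of another. A match describes the letters alone.

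Around the members, a list of 10 genes drawn up as proteasome regulators moved unevenly: 5 rose and 3 fell, with a median log2 fold change of 0.21. The 3 falls were DDI2, AKIRIN1 and AKIRIN2. Among all genes tested 22.4% rose and 21.3% fell. NFE2L1 mRNA was level, at 107, 106 and 110 CPM with tamarixetin, against 99.8, 112 and 111 CPM in control (0.0029, SE 0.052), a sign that turned under some settings. DDI2, the protease that activates the NFE2L1 protein, fell by 0.28 on the log2 scale (SE 0.051), and AKIRIN1 by 0.51 (SE 0.046). No role of AKIRIN1 or AKIRIN2 in the transcription of proteasome genes was shown here. NFE2L2 rose by 0.25 (SE 0.042), its repressor KEAP1 by 0.59 (SE 0.058), and the small MAF partners MAFG by 1.32 (SE 0.048) and MAFF by 1.36 (SE 0.10).

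Proteins that join the proteasome outside the naming rule gave 7 rises and 3 falls among 16, with a median of 0.14. For this list and the ubiquitin and p97 lists below, the shares over all genes tested were 22.4% higher and 21.3% lower. The lists were not tested against those shares. The ubiquitin receptor ADRM1 had 213, 228 and 222 CPM with tamarixetin, against 199, 198 and 195 CPM in control (log2 fold change 0.16, SE 0.042), and the deubiquitinases UCHL5 and USP14 rose by 0.26 (SE 0.067) and 0.14 (SE 0.050). The call of USP14 was lost without tamarixetin replicate 3 (adjusted p = 0.0835) and without control replicate 2 (0.0813) or 3 (0.0734) and with upper quartile factors (0.0828), all by edgeR. SEM1, the smallest lid subunit, fell, with 305, 293 and 287 CPM under tamarixetin, against 339, 345 and 339 CPM in control (-0.21, SE 0.038). Shuttles and modulators were split: UBQLN1 (0.34) and ZFAND5 (0.51) rose, while RAD23B (-0.24) and ZFAND2A (-0.28) fell. Of 12 genes for ubiquitin and its activating and conjugating enzymes 5 rose, with the conjugating enzymes UBE2K (0.26) and UBE2D1 (0.41) the examples. UBB fell, with 471, 481 and 466 CPM under tamarixetin, against 572, 575 and 581 CPM in control (-0.29, SE 0.034). UBE2D1 lost its call without control replicate 1 (adjusted p = 0.0993) or 2 (0.0556), both by edgeR. Of 10 genes of the p97 unfoldase system 2 rose, UBXN1 (0.26) and PLAA (0.31), and none fell; VCP, the unfoldase itself, had a log2 fold change of -0.072 (SE 0.040) and passed as lower with upper quartile factors (adjusted p = 0.0216) and without control replicate 1 (0.0395), both by edgeR. FAF1 (0.12) and NSFL1C (0.084) did not pass, but both did with library size alone (adjusted p = 0.0451 and 0.0290, edgeR), and FAF1 without tamarixetin replicate 1 (0.0417). PLAA lost its call without tamarixetin replicate 1 (adjusted p = 0.0930) or 2 (0.0502) and control replicate 1 (0.137) or 2 (0.0634) and with upper quartile factors (0.0551), all by edgeR, and in DESeq2 (0.0614).

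Genes of antigen presentation, which use the peptides of the immunoproteasome, rose in 3 of 11 and fell in 1. Over all genes tested 22.4% rose and 21.3% fell. Neither this list nor the interferon list below was tested against those shares. TAP2 (chromosome 6, 32821831 to 32838739), a peptide transporter gene beside PSMB8, rose by 0.42 (SE 0.063) and NLRC5 by 0.86 (SE 0.23), while HLA-C fell by 0.18 on the log2 scale (SE 0.058), a call lost without tamarixetin replicate 3 (adjusted p = 0.0555, edgeR). B2M had a log2 fold change of 0.019 (SE 0.038). HLA genes are alike in sequence, and the value of HLA-C is uncertain. Of 15 interferon response genes tested 6 rose and 3 fell: OAS1 rose by 1.24 (SE 0.19) and GBP2 by 0.47 (SE 0.11), BST2 fell by 0.36 on the log2 scale (SE 0.062) and STAT2 by 0.40 (SE 0.12).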

How the data were processed

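Libraries of HepG2 RNA were prepared with a 3′ kit (QuantSeq FWD, Lexogen), per the labels' protocols. The authors deposited 1 table of raw, unnormalised counts for each library. The submitters' processing notes name featureCounts 2.0.6, STAR 2.7.10b, fastp 0.23.1 and the GRCh38 genome. No source used here gives the annotation release, the strand setting or whether molecular identifiers were used. Without the strand setting, reads of overlapping or antisense genes cannot be told apart: in RefSeq, 20 of the 49 members overlap another gene and 22 have listed pseudogenes that could share reads.

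Counts were analysed with edgeR 4.0.16 (R 4.3.3): filterByExpr, TMM scaling, and a quasi-likelihood F test of tamarixetin against control with group as the only term, adjusted by the Benjamini-Hochberg method over 13198 genes, threshold 0.05. SE values are |log2 fold change|/√F. The common biological coefficient of variation was 4.70%. P-values set the difference between the groups against the spread between the libraries within each group, which may not reflect separate cultures. In counts simulated for this comparison with 13166 genes tested, recovery was 44% for 1.2-fold changes, 68% for 1.5-fold, 90% for 2-fold and 96% for 3-fold (50 genes at each size), with 10 wrong calls. Recovery was not split by expression level, so it does not give the share for genes as abundant as most members. In the data, 9 members that rose by less than 1.2-fold were called. The chi-square per gene between libraries of 1 group was 2.33 to 3.40, above sampling noise, so none was a copy.

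Members and lists were chosen with earlier results of these data known. Values in every library are given for the catalytic beta subunits and their alternatives, POMP, and up to 4 members per role with the largest change past the threshold; outside the members, for preset genes and up to 4 per list by p, values or log2 fold changes are given, except for some genes not reported here. The level of 50 CPM was chosen after the data were seen. AKIRIN2, RAD23B and ZFAND2A were also named after their values were seen, so that every fall in their lists is given. Motifs were searched in Python 3.11.15. Alternatives covered scaling, filters, the replicate block, left-out libraries, DESeq2 1.42.0, limma-voom (limma 3.58.1), stricter thresholds and leaving out mitochondrial genes.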

Additional observations from a re-analysis of the deposited data

How the results depend on the processing

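The counts of members called (21 higher, 5 lower) stayed between 19 and 27 higher and between 4 and 7 lower with DESeq2 size factors, library size alone, upper quartile factors, both other filters, DESeq2, limma-voom, no mitochondrial genes and an adjusted p of 0.01. Leaving out each library in turn gave 18 to 23 higher and 4 to 6 lower members, and 2643 to 2733 higher and 2512 to 2645 lower genes of all. A minimum fold of 1.2 in edgeR's glmTreat left 5 members higher and 0 lower (1 lower at an unadjusted p under 0.05; DESeq2 and limma-voom each called 5 lower with no minimum fold), and 1319 genes higher and 1241 lower. No member called in the report changed sign under any alternative. The median over members tested, 0.095, moved to 0.13 with library size alone and to 0.060 with upper quartile factors, which shifted the median of all genes to 0.035 and -0.035; without 1 library it ran from 0.092 to 0.12. Among the genes reported, the signs that turned belonged to 9 that were not called. With library size alone PSMB5 came to 0.025 and PSMA6 to 0.015; with upper quartile factors PSMB2 came to -0.025, PSMB4 to -0.031, PSMG2 to -0.013, NFE2L1 to -0.032 and B2M to -0.016; with at least 5 CPM in 3 libraries PSMB4 came to -0.0031 and NFE2L1 to -0.0050; and PSMA6 came to 0.023 with the replicate block and 0.061 in limma-voom. Leaving out 1 library, the values ran from -0.035 to 0.020 for PSMB5, -0.067 to 0.10 for PSMB8, -0.38 to 0.31 for PSMA6, -0.013 to 0.028 for PSMB2, -0.017 to 0.070 for PSMB3, -0.015 to 0.034 for PSMB4, -0.016 to 0.052 for PSMG2, -0.052 to 0.026 for NFE2L1 and -0.027 to 0.069 for B2M. Causes were not tested. Replicate numbers did not pair the libraries: deviations of same-numbered libraries correlated at -0.041 to -0.0089, and no library correlated best with its own number. The replicate block gave 23 members higher and 5 lower and a median of 0.096, and 2943 genes higher and 2792 lower. Low counts limit what can be read for PSMA6, PSMA8, PSMB9 and PSMB11, and for PSMA6 the counts themselves are uncertain.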
